A study of Homo sapiens with 8 samples.

Results

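The transcripts of 8 genes for regulators of G-protein signalling (RGS) were followed in JVM13, a B-cell line that was established from human prolymphocytic leukaemia. The genes were RGS1, RGS2, RGS3, RGS10, RGS13, RGS14, RGS16 and RGS19, 8 of 18231 genes measured. They were read from probe sets annotated to exactly 1 of them. Each gene's probe set was chosen by its mean, the highest over all 8 arrays, and the other probe sets served as a check; the genes together had 16 probe sets. The family was selected on earlier results of these data, in which levels in the 3 groups were known. Their differences between groups are therefore descriptions, and neither the choice of the family nor the share of its members that moved is independent evidence.

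Cells carried a doxycycline-inducible construct with the T286A form of cyclin D1 (3 arrays), with wild-type cyclin D1 (3 arrays) or with no insert (empty vector, 2 arrays, titled control). All 3 groups received 0.1 µg/mL doxycycline, so the comparisons leave out any effect that the drug itself has in every group. The T286A protein lacks a phosphorylation site used for its export from the nucleus and its degradation. Whether replicates were separate cultures, how long doxycycline was given and from how many separately made populations each construct came are not in the labels. The spread behind every p-value is that of these samples and may be technical.

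A G protein is switched on when a receptor makes its alpha subunit take up GTP, and it is switched off when that GTP is hydrolysed. RGS proteins bind the active alpha subunit through a shared domain and speed up this hydrolysis, so they shorten the signal of the receptor. In B cells they are best known for limiting responses to chemokines, which signal through the inhibitory class of alpha subunits. RGS1 and RGS13 are known as RGS genes of germinal centre B cells. Beside RGS1 and RGS13, RGS2, RGS3 and RGS16 also belong to the R4 subfamily, RGS10 and RGS14 to the R12 subfamily, and RGS19 to the RZ subfamily.

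Levels are given as log2 values from robust multi-array averaging (RMA), on which a difference of 1 is a doubling. Each gene was fitted with limma over all 8 arrays, and a gene is called where its Benjamini-Hochberg adjusted p over all 18231 genes is under 0.05. RMA gives all arrays nearly the same distribution, so each difference is relative to the other genes, and background in dim probe sets makes differences too small. CCND1, which encodes cyclin D1, stood at 11.25, 10.86 and 10.95 in T286A, at 10.98, 11.13 and 11.07 in wild type and at 5.25 and 4.98 in empty vector arrays, and T286A minus wild type was -0.04 ± 0.12 (adjusted p = 0.902). Wild-type replicate 2 stood apart, with a limma array weight of 0.513 against 0.85 to 1.44 in the other arrays. Of 7 B-cell markers 6 were measured, and their means over all arrays lay between 7.87 and 13.33, all above the median of all genes (5.94). Their summed level was 60.88 to 60.98 in T286A, 60.46 to 61.01 in wild type and 61.09 to 61.14 in empty vector arrays. The 5 T and NK markers and the 5 myeloid markers had means of 4.13 to 4.76, all below that median. Among the B-cell markers CD22 alone was called, at -0.40 ± 0.080 in wild type minus empty vector (adjusted p = 0.0498), and that call was lost in all 8 fits that left out an array (differences of -0.43 to -0.36).

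RGS2 and RGS16 differed between the constructs, in opposite directions. RGS2 was lower in T286A than in wild-type cells and RGS16 was higher, and in each the arrays of the 2 constructs did not overlap. They were 2 of 8 members called in T286A minus wild type, against 0.987% of all genes (0.598% higher and 0.389% lower). The other 6 members lay between -0.21 and 0.11 in this comparison and were not called. The promoter sequences of both genes are shown here because these genes went opposite ways in the same arrays. Each is the 250 bases before the annotated transcription start, 5′ to 3′ on the gene's own strand, from RefSeq (GRCh38.p14), chr1:192808789-192809038 on the plus strand for RGS2 and chr1:182604390-182604639 on the minus strand for RGS16. Capitals mark matches to the searched motifs.
RGS2: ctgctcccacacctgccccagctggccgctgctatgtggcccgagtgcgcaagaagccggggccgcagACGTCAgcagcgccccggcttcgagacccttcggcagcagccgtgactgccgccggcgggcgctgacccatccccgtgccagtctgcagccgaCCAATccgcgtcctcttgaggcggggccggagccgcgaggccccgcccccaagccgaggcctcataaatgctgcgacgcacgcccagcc
RGS16: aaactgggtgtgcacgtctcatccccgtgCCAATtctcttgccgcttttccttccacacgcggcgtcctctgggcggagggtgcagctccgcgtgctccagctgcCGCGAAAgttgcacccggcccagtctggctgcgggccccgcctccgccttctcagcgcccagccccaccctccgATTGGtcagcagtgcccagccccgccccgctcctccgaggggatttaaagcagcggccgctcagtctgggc
The motifs searched, on both strands, were the core of the cAMP response element (TGACGT), the AP-1 site (TGANTCA), an NF-kappa-B site, an E2F site (TTTCGCG), the CCAAT box (CCAAT) and the TATA box (TATAAA), and no matches overlapped in the members. The RGS2 window held the cAMP response core (bases -182 to -177 from the start) and a CCAAT box. The RGS16 window held 2 CCAAT boxes and an E2F match at bases -145 to -139. Of 35116 promoter windows of the same length, 7.1% held the cAMP response core, 1.1% the E2F letters and 32.0% a CCAAT box. The motifs were chosen after the promoters were seen, so such shares do not measure how unusual the matches are. GC content was 72.8% for RGS2 and 68.4% for RGS16, against a median of 58.0% over all windows. A match of letters describes the sequence and does not show that a factor binds there.

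RGS2 is an R4 member that acts preferentially on alpha subunits of the Gq class, which activate phospholipase C-beta. It had values of 6.97, 7.48 and 7.51 in T286A arrays, 8.30, 8.45 and 8.27 in wild-type arrays and 7.93 and 7.98 in empty vector arrays. All 3 groups were apart from each other, with empty vector in the middle, and T286A replicate 1 was the lowest array. The 3 T286A arrays differed from the 3 wild-type arrays by -1.02 ± 0.14, with a 95% interval of -1.34 to -0.70 and an adjusted p of 0.0156, or 0.492-fold. Against empty vector the 2 constructs lay on opposite sides, at -0.64 ± 0.16 for T286A (adjusted p = 0.131) and at 0.38 ± 0.16 for wild type (adjusted p = 0.327). Neither was called, and both use the same 2 control arrays. Without wild-type replicate 1, 2 or 3 the difference between constructs was -1.04, -0.97 or -1.06, and the adjusted p was 0.0599, 0.0536 or 0.0566, just past the threshold. RGS2 has a single probe set on the array, so no other probe set could check it.

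RGS16, an R4 member that acts on alpha subunits of the inhibitory and Gq classes, had 9.41, 9.55 and 9.52 in T286A arrays. Its values were 9.07, 9.05 and 8.95 in wild-type arrays and 9.09 and 9.15 in empty vector arrays. The T286A arrays stood above all the others, and wild type lay just below empty vector without overlap. The 3 T286A arrays differed from the 3 wild-type arrays by 0.47 ± 0.066, with a 95% interval of 0.32 to 0.62 and an adjusted p of 0.0171, or 1.38-fold. T286A minus empty vector was 0.37 ± 0.074 (adjusted p = 0.0785), and wild type minus empty vector was -0.10 ± 0.074 (adjusted p = 0.637). Without wild-type replicate 1 or 3 the difference between constructs was 0.49 or 0.43 and the adjusted p 0.0565 or 0.0685. Without T286A replicate 2 or 3 it was 0.44 or 0.46, with an adjusted p of 0.0823 or 0.0827.

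**Figure D1:**
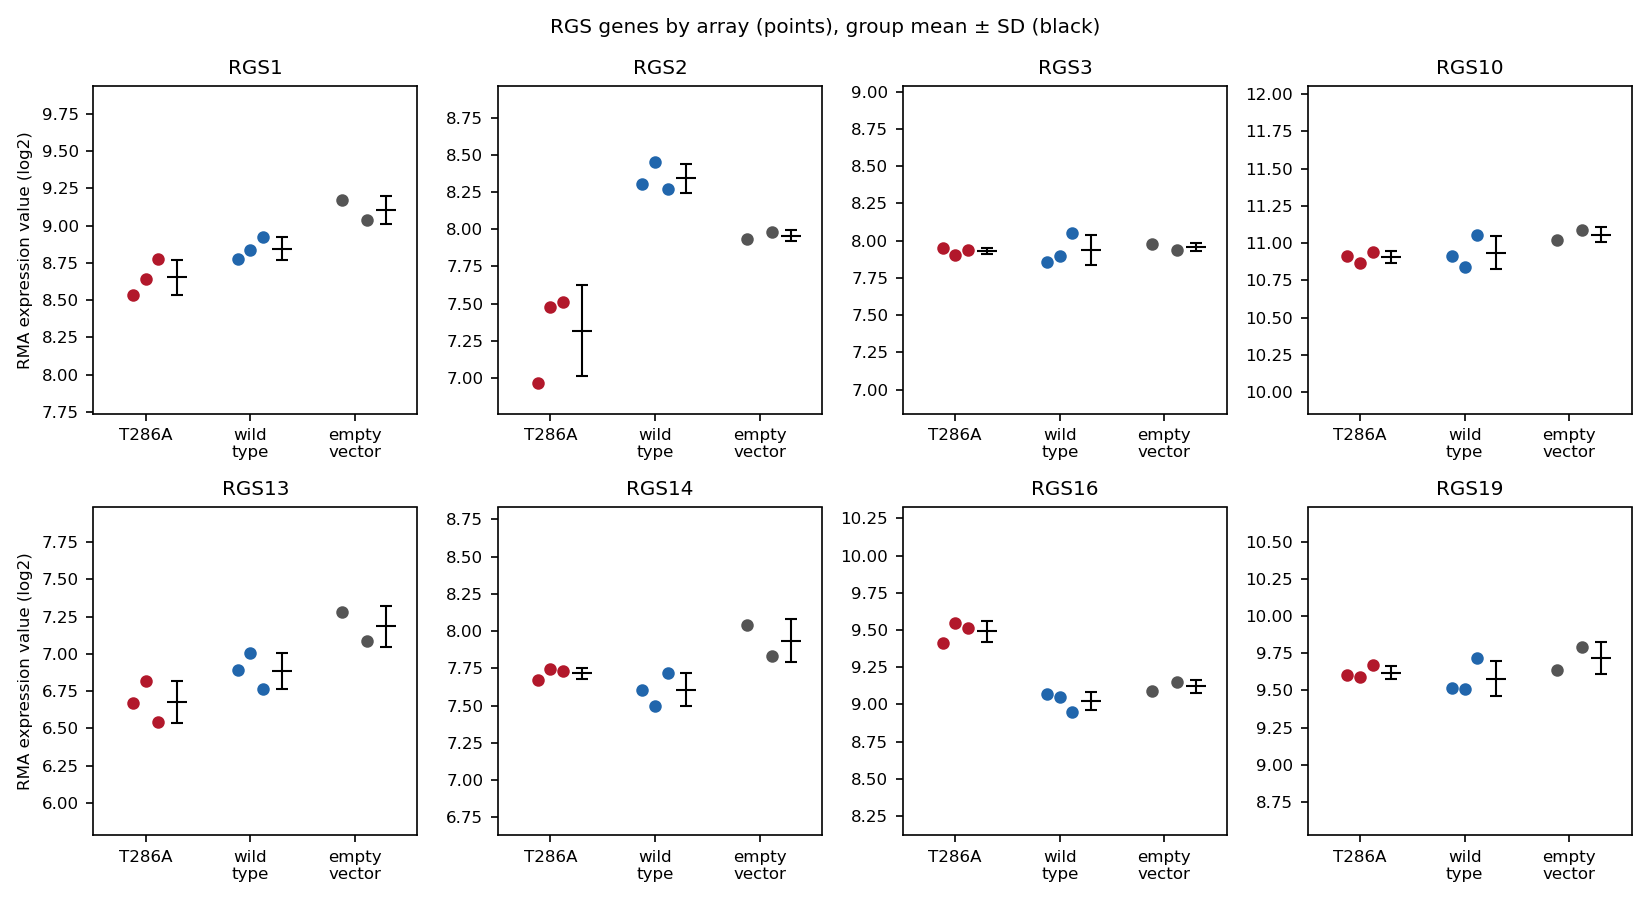
RMA expression values (log2) of the 8 RGS genes in T286A, wild-type and empty vector arrays; points are arrays, black bars the group mean ± SD, and every panel spans the same range around the gene's own mean. RGS2 is lowest in T286A (6.97 to 7.51) and highest in wild type (8.27 to 8.45), and RGS16 is highest in T286A (9.41 to 9.55).

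The 3 dimmer RGS16 probe sets gave a check. The second brightest, with a mean close to the first (9.03 against 9.22), had 9.29, 9.29 and 9.35 in T286A, 8.76, 8.80 and 8.97 in wild type and 9.0 and 8.80 in empty vector arrays. It was 0.47 ± 0.085 higher in T286A than in wild type (adjusted p = 0.0645 with all probe sets fitted). The third differed by 0.64 ± 0.16 in the same direction (adjusted p = 0.171). The dimmest, with a mean of 6.16, was at -0.18 ± 0.092 (adjusted p = 0.488). The brightest 3 of 4 probe sets thus had the same sign, and none of the other 3 was called on its own.

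**Figure D2:**
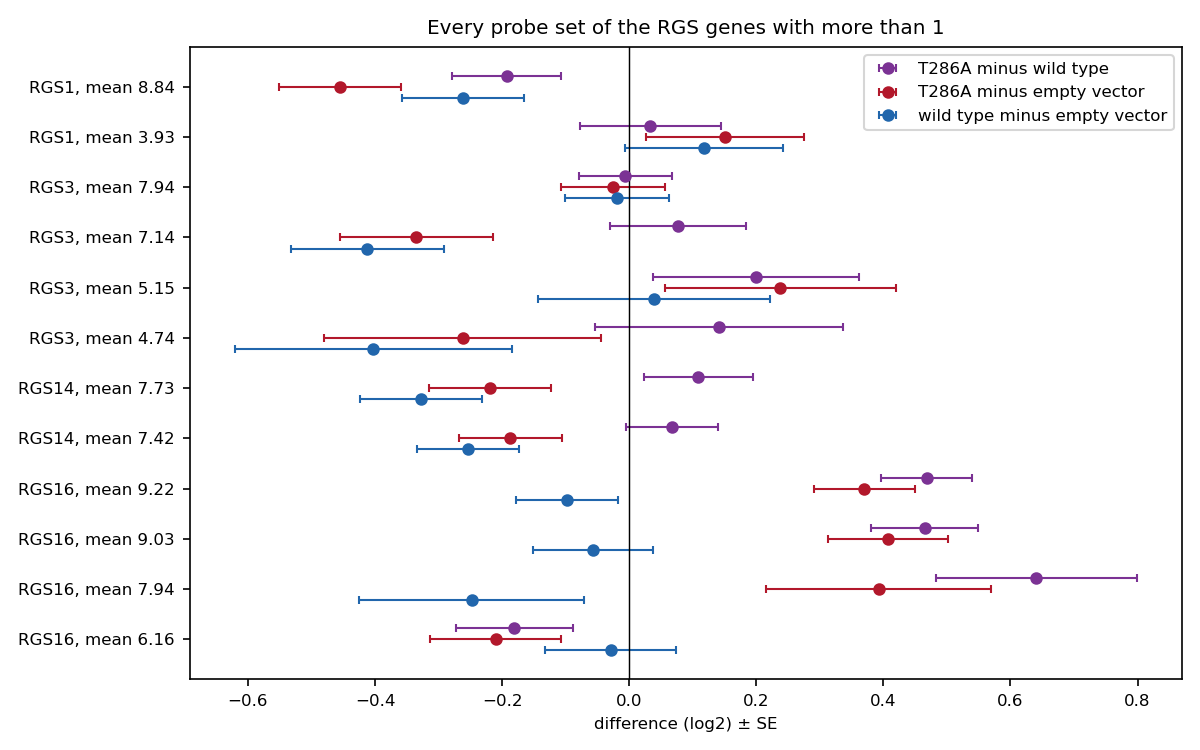
Differences (log2, ± SE) of every probe set of the 4 genes that have more than 1, labelled with the probe set's mean over all arrays, for T286A minus wild type, T286A minus empty vector and wild type minus empty vector. The 3 brighter RGS16 probe sets lie at 0.47 to 0.64 for T286A minus wild type and the dimmest at -0.18.

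RGS1 and RGS13 lay below empty vector with both constructs, and none of these differences passed the test. RGS1, which restrains migration of B cells towards chemokines, had 8.54, 8.64 and 8.78 in T286A arrays, 8.77, 8.84 and 8.92 in wild-type arrays and 9.17 and 9.04 in empty vector arrays. Both constructs were below both controls, and the constructs overlapped each other slightly. T286A minus empty vector was -0.46 ± 0.092 (3 against 2 arrays, adjusted p = 0.0801) and wild type minus empty vector was -0.26 ± 0.092 (adjusted p = 0.251). Between the constructs the RGS1 difference was -0.19 ± 0.082, with a 95% interval of -0.38 to -0.01 and an adjusted p of 0.356. A second RGS1 probe set was dim, at 3.79 to 4.23 in all arrays, and had differences of 0.15 for T286A and 0.12 for wild type against empty vector.

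RGS13, next to RGS1 on the chromosome, had 6.67, 6.82 and 6.54 in T286A arrays, 6.89, 7.01 and 6.76 in wild-type arrays and 7.28 and 7.09 in empty vector arrays. Again both constructs lay below both controls and overlapped each other. The difference was -0.51 ± 0.11 for T286A (adjusted p = 0.095) and -0.30 ± 0.11 for wild type (adjusted p = 0.281), both against the same 2 control arrays. Between the constructs it was -0.21 ± 0.099, with a 95% interval of -0.44 to 0.02 and an adjusted p of 0.401. With the dimmer genes left out of the fit, 3 of 8 members were called in T286A minus empty vector: RGS1 (adjusted p = 0.0246), RGS13 (adjusted p = 0.0323) and RGS16 (adjusted p = 0.0186). That fit called 527 of the 9116 genes it tested (5.78%), against 0.532% of 18231 with all genes fitted. With a trend of the variance on intensity the members called were RGS1 (adjusted p = 0.00816), RGS2 (0.0196) and RGS16 (0.00854), where 3.39% of all genes were called. With array weights they were RGS13 (0.0458) and RGS16 (0.0412), where 1.74% of all genes were called.

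The RGS1 and RGS13 promoters are shown because these neighbouring genes had differences of like size in all 3 comparisons. The windows are chr1:192575523-192575772 for RGS1 and chr1:192635897-192636146 for RGS13, both on the plus strand of GRCh38.p14 (RefSeq), with motif matches in capitals.
RGS1: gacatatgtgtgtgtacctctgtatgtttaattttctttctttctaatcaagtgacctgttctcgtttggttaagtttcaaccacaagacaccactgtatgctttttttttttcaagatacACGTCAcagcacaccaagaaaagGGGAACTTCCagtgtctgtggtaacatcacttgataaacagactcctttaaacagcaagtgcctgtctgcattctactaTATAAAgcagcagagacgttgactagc
RGS13: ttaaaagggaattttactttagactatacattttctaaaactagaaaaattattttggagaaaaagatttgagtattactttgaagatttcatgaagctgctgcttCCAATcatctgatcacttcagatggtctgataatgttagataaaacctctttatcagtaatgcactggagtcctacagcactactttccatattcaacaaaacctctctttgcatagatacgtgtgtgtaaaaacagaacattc
The RGS1 window held a cAMP response core (bases -129 to -124), an NF-kappa-B match (bases -106 to -97) and a TATA box (bases -27 to -22). Over all windows 5.67% held the NF-kappa-B motif and 10.7% a TATA box. The RGS13 window held a CCAAT box, and none of the other 5 motifs was among its letters. GC content was 39.2% for RGS1 and 32% for RGS13, both under the median of 58.0%. None of the 8 genes' 14 windows held the AP-1 letters, which 6.57% of all windows held. At that share so few windows cannot show whether the family lacks them. These motifs too were chosen after the promoters were seen.

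RGS1, RGS13 and RGS2 lie next to each other on chromosome 1, together with RGS18 and RGS21, in the RefSeq table for GRCh38.p14. The probe sets of RGS18 and RGS21 were dim, with means of 4.34 and 3.86. Of the 8 measured genes that start within 500 kb of RGS2, limma called 0 in any of the 3 comparisons. In T286A minus wild type, RGS2 was at -1.02 and these 8 genes lay between -0.21 and 0.19. RO60, UCHL5, GLRX2, CDC73 and B3GALT2, on the other side of RGS2 from RGS1, had differences of -0.16 to -0.04 in that comparison; these uncalled neighbours were named after their values were seen. Between the constructs the value of RGS2 was further from 0 than that of each of these 8 genes. The RGS2 difference was already known from earlier results, so this ranking is a description. At an unadjusted p under 0.05, 2 of these 8 genes were lower in T286A than in wild type (RGS1 and GLRX2), and RGS1 and RGS13 were lower in each construct than in empty vector. The RGS16 gene lies elsewhere on chromosome 1, and limma called 0 of the 9 measured genes within 500 kb of it in any comparison; in T286A minus wild type they lay between -0.48 and 0.22. Unlike RGS2, RGS16 (0.468) was not further from 0 than each of its neighbours, since NPL lay at -0.476. At an unadjusted p under 0.05, NPL and LAMC1 (-0.223) were lower and SHCBP1L (0.224) higher between the constructs. At that p LAMC1 was lower in T286A minus empty vector and NPL higher in wild type minus empty vector, all named after their values were seen. Of all genes, 13.6%, 12.1% and 13.5% were under that p in these 3 comparisons, shares that also stand beside the counts near RGS2.

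**Figure D3:**
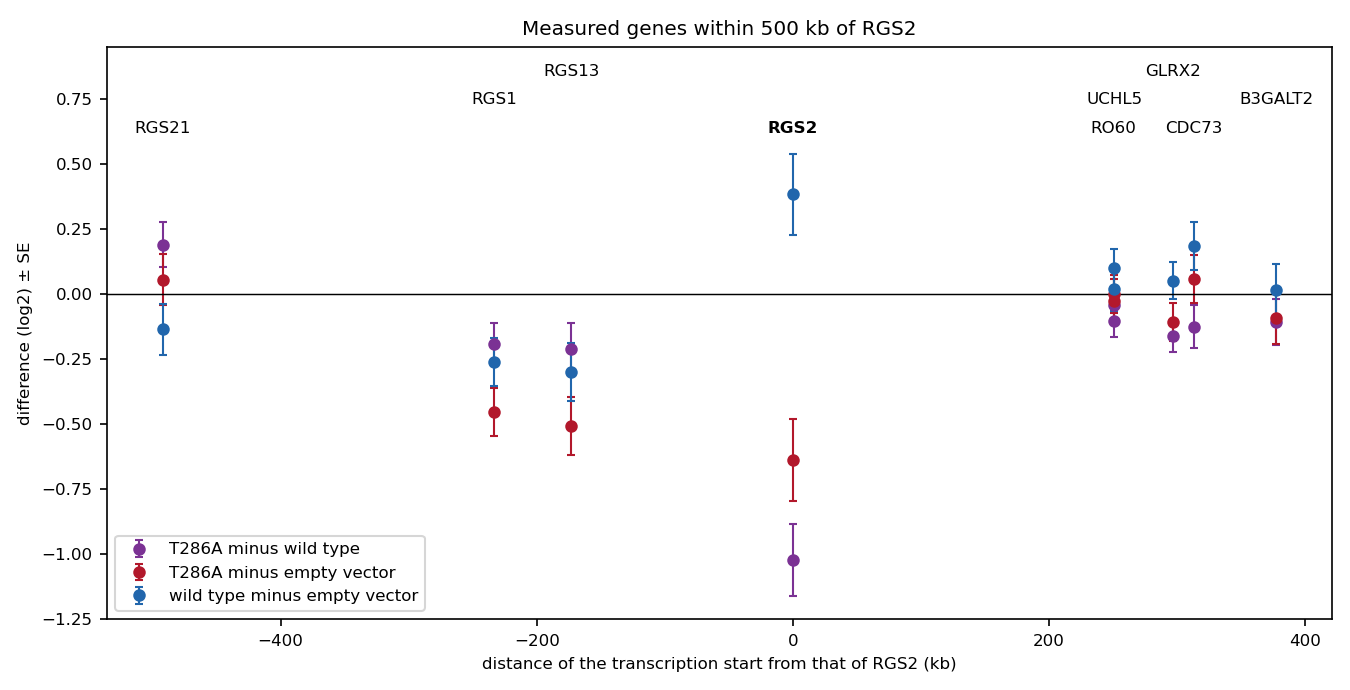
Differences (log2, ± SE) of RGS2 and of the 8 measured genes that start within 500 kb of it, by distance of the start site from that of RGS2 (kb), for the 3 comparisons. RGS2 spans from -1.02 (T286A minus wild type) to 0.38 (wild type minus empty vector), while RGS1 and RGS13 are below 0 in all 3.

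RGS3, a longer R4 member, had 7.95, 7.91 and 7.94 in T286A arrays, 7.86, 7.90 and 8.05 in wild-type arrays and 7.97 and 7.94 in empty vector arrays. All groups overlapped. T286A minus wild type was -0.01 ± 0.068 (95% interval -0.16 to 0.15), and the differences from empty vector were -0.03 for T286A and -0.02 for wild type (adjusted p = 0.944 and 0.95). The 4 RGS3 probe sets differed from each other. The second brightest had 7.04, 7.09 and 7.11 in T286A, 6.89, 6.88 and 7.25 in wild type and 7.49 and 7.34 in empty vector arrays. It was at -0.335 ± 0.12 for T286A and -0.41 ± 0.12 for wild type against empty vector (adjusted p = 0.366 and 0.21 with all probe sets fitted). Which transcripts of RGS3 each probe set reads was not examined.

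RGS14 carries, beside its RGS domain, domains that bind small GTPases of the Ras family and a motif that holds inhibitory alpha subunits in their inactive form. It had 7.67, 7.74 and 7.73 in T286A arrays, 7.61, 7.50 and 7.72 in wild-type arrays and 8.04 and 7.83 in empty vector arrays. Both constructs were below both controls and overlapped each other. The differences from empty vector were -0.22 ± 0.092 for T286A (adjusted p = 0.395) and -0.33 ± 0.092 for wild type (adjusted p = 0.148), and T286A minus wild type was 0.11 ± 0.082 (adjusted p = 0.604). Its second probe set gave -0.19 for T286A and -0.25 for wild type against empty vector (adjusted p = 0.465 and 0.255 with all probe sets fitted). Among 22 measured genes within 500 kb of RGS14, DBN1, an actin-binding protein gene, was the single called gene, lower in wild type than in empty vector (-0.78 ± 0.11, adjusted p = 0.0172). That call was lost without wild-type replicate 1 or 2 (differences of -0.71 and -0.76) and without empty vector replicate 1 or 2 (-0.66 and -0.89).

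RGS10, a short protein that acts on inhibitory alpha subunits, had 10.91, 10.87 and 10.94 in T286A arrays, 10.91, 10.84 and 11.05 in wild-type arrays and 11.02 and 11.09 in empty vector arrays. The T286A arrays were all below the controls, at -0.15 ± 0.080 (adjusted p = 0.519), and wild type overlapped them. RGS19, which binds inhibitory alpha subunits and is found on vesicles, had 9.60, 9.59 and 9.67 in T286A arrays, 9.52, 9.51 and 9.71 in wild-type arrays and 9.64 and 9.79 in empty vector arrays. Its groups overlapped in all 3 comparisons. Differences between the constructs were not detected, at -0.03 for RGS10 (95% interval -0.19 to 0.13) and 0.04 for RGS19 (95% interval -0.14 to 0.22). These intervals leave room for changes of that size and bound larger ones.

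**Figure D4:**
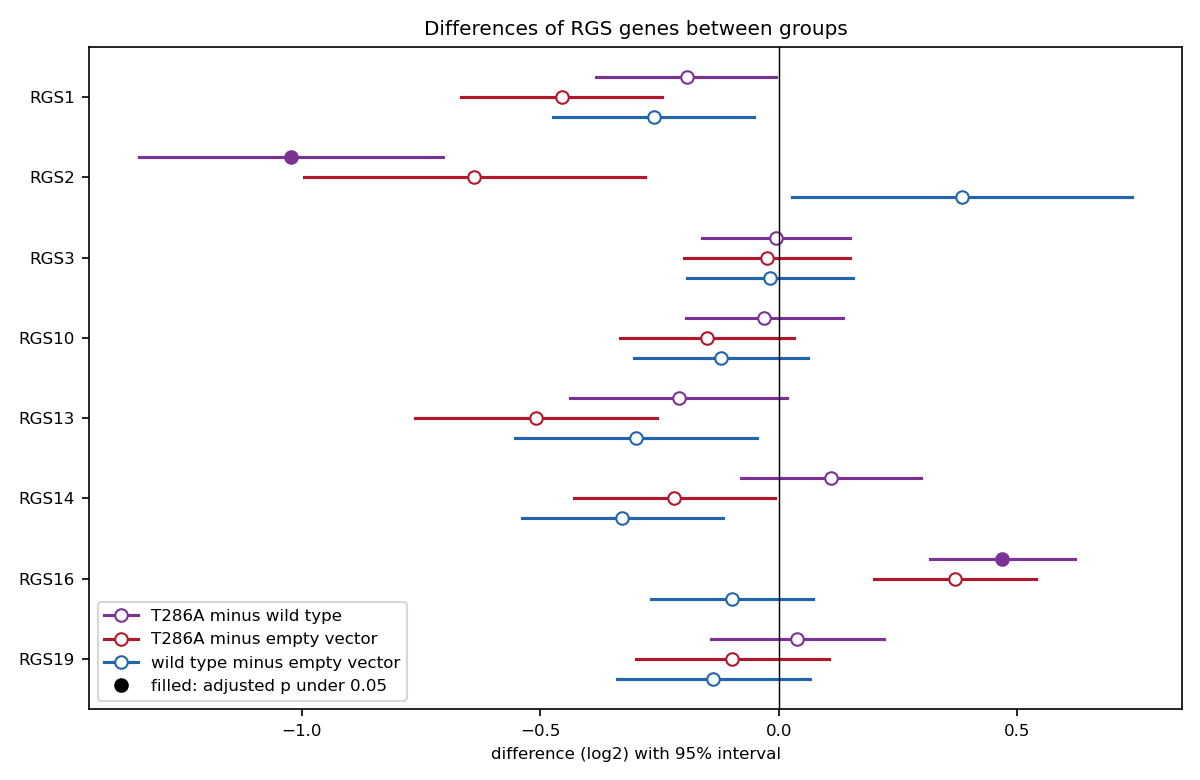
Differences (log2) with 95% intervals of the 8 RGS genes for T286A minus wild type, T286A minus empty vector and wild type minus empty vector; filled points have an adjusted p under 0.05. RGS2 (-1.02) and RGS16 (0.47) are the filled points, both in T286A minus wild type.

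Against empty vector, limma called 0 of 8 members for T286A, where 0.532% of all genes were called (0.34% higher and 0.192% lower), and 0 of 8 for wild type, where 1.74% were (0.603% higher and 1.14% lower). At an unadjusted p under 0.05 there were 5 members in T286A minus empty vector, against 12.1% of all genes. RGS16 was the 1 higher (5.95% of genes) and 4 were lower (6.15%). In wild type minus empty vector there were 4, against 13.5% of all genes, with RGS2 the 1 higher (6.08%) and 3 lower (7.42%). Between the constructs there were 3, against 13.6% of all genes, with RGS16 the 1 higher (7.16%) and 2 lower, RGS1 and RGS2 (6.46%). Arrays of the 2 groups did not overlap for 6 members in T286A minus empty vector, 1 higher and 5 lower, against 31.9% of all genes (15.2% higher and 16.7% lower). In wild type minus empty vector they did not overlap for 5, 1 higher and 4 lower, against 30.5% (15.2% and 15.3%). Between the constructs they did not overlap for RGS2 and RGS16, against 19.8% (9.94% higher and 9.82% lower). The median difference of the members was -0.18 for T286A and -0.13 for wild type against empty vector, with medians over all genes of -0.003 and 0.0016. The 2 comparisons share their control arrays, and a high control value moves both.

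Genes whose pattern was most like that of RGS2 and RGS16 were found by the root mean square distance over the 8 arrays, after centring each gene on its own mean. The 3 nearest to RGS2 were ELK3, an ETS-family transcription factor, at 0.19, CCDC74A at 0.227 and REXO2, a mitochondrial ribonuclease, at 0.232. RGS2 itself deviated from its mean by 0.474 on the same scale. They were lower in T286A than in wild type, at -0.96, -0.78 and -0.61 (adjusted p = 0.00218, 0.00839 and 0.0158), and the REXO2 call was lost without wild-type replicate 1, 2 or 3 or T286A replicate 2 (differences of -0.62, -0.60, -0.61 and -0.62). The 3 nearest to RGS16, which deviated from its mean by 0.217, were INTS6 (0.0703), ERLIN1 (0.0748) and BNIP3L (0.0782). Their values in T286A minus wild type were 0.35, 0.32 and 0.49, and BNIP3L alone was called (adjusted p = 0.0262). That call was lost without any single wild-type or T286A replicate, with adjusted p between 0.0707 and 0.0989 and differences of 0.42 to 0.52. The genes near RGS2 and RGS16 were picked for their likeness over these same arrays. Their directions and p-values follow from that choice and are not independent evidence.

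The other parts of the pathway were read from fixed lists, chosen with earlier results of these data known. Beside their counts at an unadjusted p under 0.05 stand the shares of all genes. These were 7.16% higher and 6.46% lower in T286A minus wild type and 5.95% and 6.15% in T286A minus empty vector. In wild type minus empty vector they were 6.08% and 7.42%. Counts of called genes have other shares beside them, those of all genes called. These were 0.598% higher and 0.389% lower in T286A minus wild type and 0.34% and 0.192% in T286A minus empty vector. In wild type minus empty vector 0.603% were called higher and 1.14% lower. Limma called 0 of 13 other RGS genes in any comparison. At an unadjusted p under 0.05 there were 2 higher for wild type and 1 higher and 1 lower for T286A, both against empty vector, and 0 between the constructs. Their medians were -0.02 in T286A minus wild type, 0.02 in T286A minus empty vector and -0.03 in wild type minus empty vector. RGS20, an RZ member like RGS19, had the smallest p of them. It had 5.17, 4.87 and 5.45 in T286A arrays, 5.06, 4.81 and 5.21 in wild-type arrays and 4.30 and 4.41 in empty vector arrays, all below the median of all genes. Both constructs were above both controls, by 0.81 ± 0.17 for T286A (adjusted p = 0.09) and 0.67 ± 0.17 for wild type (adjusted p = 0.115). Among 9 more distant proteins with an RGS-like domain 0 were called, and 3 unadjusted p under 0.05 over the 3 comparisons all belonged to higher values in the group named first; SNX13 had the smallest, with wild type 0.36 ± 0.10 above empty vector (adjusted p = 0.147).

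Among 11 measured partners of RGS proteins and G-protein chaperones, GPSM2 was the single call. GPSM2 binds inactive inhibitory alpha subunits and orients the mitotic spindle. It had 8.94, 8.69 and 8.86 in T286A arrays, 8.61, 8.52 and 8.61 in wild-type arrays and 8.24 in each empty vector array. T286A was 0.59 ± 0.084 above empty vector (adjusted p = 0.0315), and wild type minus empty vector was 0.34 (adjusted p = 0.105). The T286A call was lost in 7 of 8 fits that left out an array (wild-type replicate 2 being the exception), where the difference stayed between 0.54 and 0.66. Of 13 alpha subunits, GNA15, a Gq-class subunit of blood cells, was the single call. It had 7.12, 7.22 and 7.23 in T286A arrays, 6.74, 6.34 and 6.65 in wild-type arrays and 7.23 and 7.52 in empty vector arrays, and wild type was lower than empty vector (-0.80 ± 0.13, adjusted p = 0.0272). T286A minus empty vector was -0.18 for GNA15 (adjusted p = 0.666), and T286A minus wild type was 0.61 (adjusted p = 0.0656). The GNA15 call stood without wild-type replicate 1 or 2 and was lost without any other array, with differences of -0.94 to -0.65. Limma called 0 of 12 beta and gamma subunits and 0 of 6 receptor kinases and arrestins in any comparison. The smallest p among them belonged to GNG8 and GRK3, which were 0.53 and 0.36 higher in T286A than in wild type (adjusted p = 0.0781 and 0.129). At an unadjusted p under 0.05, 2 of 12 subunits were higher in T286A minus wild type, 1 was higher and 1 lower in T286A minus empty vector, and 0 differed in wild type minus empty vector. Of the 6 kinases and arrestins, 1 was higher in T286A minus wild type, 0 differed in T286A minus empty vector and 2 were lower in wild type minus empty vector.

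Among the effectors, PLCB1, a phospholipase C-beta activated by the Gq class, had 6.66, 6.93 and 6.48 in T286A arrays, 5.75, 5.80 and 5.40 in wild-type arrays and 7.14 and 7.13 in empty vector arrays. It was 1.04 ± 0.14 higher in T286A than in wild type (adjusted p = 0.0143) and lower in wild type than in empty vector (-1.485, adjusted p = 0.00422), the reverse order of RGS2 between the constructs. PLCB4, of the same enzyme family, had 4.26, 4.50 and 3.85 in T286A arrays, 5.45, 4.91 and 5.35 in wild-type arrays and 4.19 and 4.22 in empty vector arrays. It was lower in T286A than in wild type (-1.03 ± 0.18, adjusted p = 0.0459) from a dim probe set, and that call remained in 1 of 8 fits that left out an array, the one without wild-type replicate 2 (differences of -1.20 to -0.86). PIK3R5, a regulatory subunit of the phosphoinositide kinase driven by beta and gamma subunits, had 7.39, 7.23 and 7.50 in T286A arrays, 6.70, 6.51 and 6.66 in wild-type arrays and 7.33 and 7.41 in empty vector arrays. It was 0.75 ± 0.089 higher in T286A than in wild type (adjusted p = 0.00839) and lower in wild type than in empty vector (-0.75, adjusted p = 0.0128). These were the called effectors. They numbered 2 higher and 1 lower of 27 between the constructs (0.598% and 0.389% of all genes). In wild type against empty vector 2 of 27 were called lower (1.14% of all genes). In T286A cells set against empty vector cells limma called 0 of 27, and 3 were lower at an unadjusted p under 0.05. Without empty vector replicate 1 or 2, PLCB1 (-1.48 and -1.49) and PIK3R5 (-0.79 and -0.71) were no longer called in wild type minus empty vector, and without T286A replicate 1 PLCB1 was at 1.05 between the constructs with an adjusted p of 0.0578.

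Of 28 receptors listed for B cells, 25 were measured. Limma called CCR9, LPAR2 and PTGER4 lower in wild type than in empty vector (1.14% of all genes called lower). It called CCR9 lower and LTB4R higher in T286A than in empty vector (0.192% and 0.34%). CCR9, LPAR2 and LTB4R were called higher in T286A than in wild type (0.598%). CCR9, a chemokine receptor, had 6.63, 6.83 and 6.62 in T286A arrays, 6.14, 6.11 and 6.10 in wild-type arrays and 7.63 and 7.72 in empty vector arrays, 3 groups that did not overlap. The chemokine receptor CXCR4, whose signal RGS1, RGS13 and RGS16 can limit, had means of 11.36 in T286A, 11.25 in wild type and 11.32 in empty vector and was chosen for that reason after its values were seen. LPAR2 and PTGER4, receptors for lysophosphatidic acid and prostaglandin E, were lower in wild type than in empty vector, at -0.69 and -0.635 (adjusted p = 0.0259 and 0.0252). LTB4R, a leukotriene receptor, was 0.76 and 0.70 higher in T286A than in empty vector and wild type (adjusted p = 0.0453 and 0.0251). The calls of LPAR2, PTGER4 and LTB4R were lost in at least 5 of 8 fits that left out an array, which kept the differences at -0.76 to -0.61 and -0.73 to -0.56 for LPAR2 and PTGER4 against empty vector and at 0.62 to 0.90 for LTB4R against it. Against empty vector the CCR9 call of T286A was lost without T286A replicate 1 or 3 or either empty vector replicate (-0.95, -0.95, -1.02 and -0.94), and its other 2 calls stood in all 8 such fits. At an unadjusted p under 0.05 the receptors numbered 6 higher and 3 lower of 25 in T286A minus wild type (7.16% and 6.46% of all genes). They numbered 1 higher and 8 lower in T286A minus empty vector (5.95% and 6.15%), and 2 higher and 10 lower in wild type minus empty vector (6.08% and 7.42%).

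RGS1, RGS2 and RGS16 are also known as genes induced on activation of lymphocytes. Of 18 listed early activation and cAMP-response genes, 16 were measured beside them. In wild type minus empty vector 5 were called lower (1.14% of all genes) and 0 higher (0.603%), with a median of -0.26. Of these 5, FOS, EGR1 and CD83 differed most. FOS, a subunit of AP-1, had 7.73, 7.17 and 7.49 in T286A arrays, 6.0, 6.03 and 5.65 in wild-type arrays and 7.44 and 7.30 in empty vector arrays. EGR1, a zinc finger transcription factor, had 10.21, 10.30 and 10.33 in T286A arrays, 9.15, 9.26 and 9.42 in wild-type arrays and 10.40 and 10.44 in empty vector arrays. In T286A minus wild type both were called higher, by 1.57 and 1.00 (adjusted p = 0.00403 and 0.00149). In T286A cells set against empty vector cells limma called 0 of 16, and 6 were lower at an unadjusted p under 0.05. Between the constructs RGS16 thus had the sign of FOS and EGR1 and RGS2 the opposite sign. FOS and EGR1 do not stand for the list, whose genes were mixed in T286A minus wild type. Of the 16, 12 lay above 0 and the rest below, with a median of 0.065. RGS1 (-0.19, not called) had the sign of RGS2. The CD83 call (-0.65, adjusted p = 0.0215) was lost without wild-type replicate 3 or either empty vector replicate (-0.65, -0.72 and -0.58), and the FOS call against empty vector (-1.48) without either empty vector replicate (-1.41 and -1.55).

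**Figure D5:**
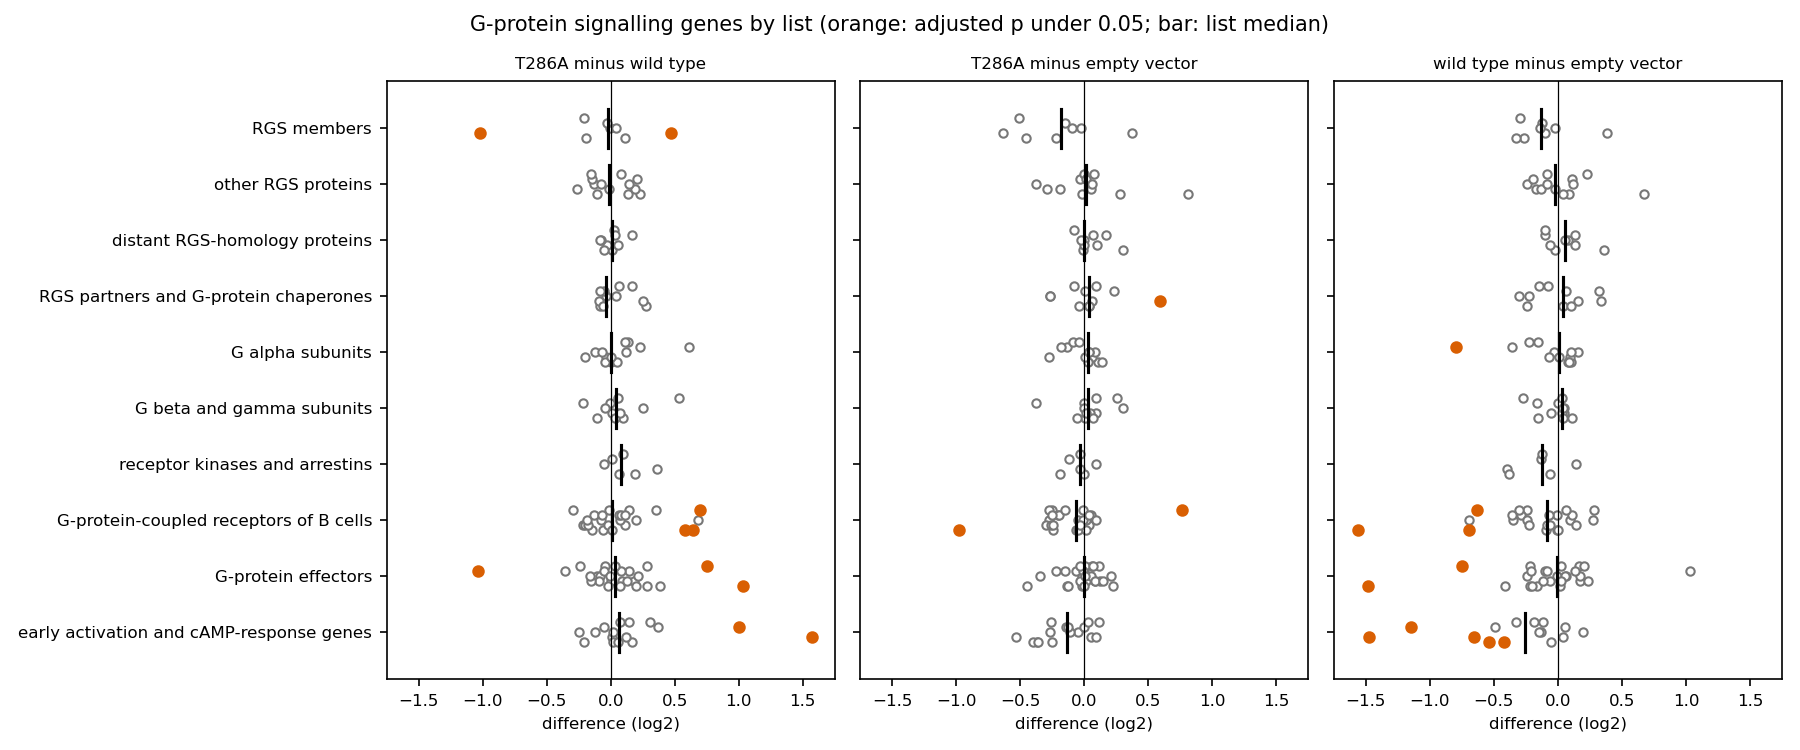
Differences (log2) of the RGS genes and of each list of G-protein signalling genes for the 3 comparisons; each point is a gene, orange points have an adjusted p under 0.05 and the bar is the list's median. Among the 8 RGS genes the orange points are RGS2 and RGS16, in T286A minus wild type.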

How the data were processed

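Expression in 8 samples was measured on Affymetrix arrays. The authors deposited log2 values; the submitters' processing notes name RMA and R 3.5.0. RMA corrects background, quantile-normalizes the arrays and summarises probe sets. With 2 or 3 arrays a group, their number limits the precision.

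Of 48864 probe sets, 10 control probe sets were left out and 45220 had 1 gene, 1325 several and 2309 none in the platform annotation. Probe sets with several genes named none. The brightest probe set of each of 18231 genes was fitted with limma 3.58.1 in R 4.3.3, with a mean per group over all 8 arrays and Benjamini-Hochberg adjustment over all genes. The fit was tested on simulated data, and the outcome is not reported here.

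The members, lists and tests were chosen with earlier results of these data known, and the RGS2 difference between constructs was already among them. Named genes were all 8 members and CCND1, up to 3 called genes with the largest difference per list and comparison (or, with none called, the smallest p), the 3 genes nearest to each called member among genes at or above the median level, and called genes within 500 kb of a member. Outside this rule, and after their values were seen, CXCR4, RGS18, RGS21 and the uncalled neighbours of RGS2 and RGS16 were named. Promoter motifs were chosen after the promoters were seen. Alternatives covered probe set choice, low values, scaling, array weights, variance trend, groups fitted, replicate numbers and each array left out.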

Additional observations from a re-analysis of the deposited data

Results flagged for a closer look

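The effects of the 2 constructs, each against the same 2 empty vector arrays, differed for RGS2 and RGS16 in the test of that difference (limma, T286A minus wild type). For RGS2 the difference of effects was -1.02 on the log2 scale, made of -0.64 for T286A and 0.38 for wild type, and all 3 T286A arrays were below all 3 wild-type arrays. For RGS16 it was 0.47, made of 0.37 for T286A and -0.10 for wild type, and all 3 T286A arrays were above all 3 wild-type arrays. In each gene neither single effect against empty vector passed the adjusted threshold. Both calls between the constructs were lost when some single arrays were left out. The family was selected with earlier results known, the RGS2 difference among them, so this test is not independent evidence.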

How the results depend on the processing

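RGS2 kept its direction in T286A minus wild type under all 17 alternatives and was called in 14. RGS16 kept its direction under all 17 and was called in 12. Several alternatives could change only the error or the genes tested, so direction was fixed there. Among them were every probe set fitted (-1.022 and 0.468), the intensity trend and the fits without an empty vector array. Over all alternatives RGS2 lay at -1.12 to -0.847 and RGS16 at 0.348 to 0.508. Members called in that comparison numbered 2, and 0 to 2 with 1 array left out. With the replicate block 1 was called, since RGS16 then had an adjusted p of 0.0715. Deviations from the group means correlated at -0.091 to 0.119 for same-numbered arrays and at -0.11 to 0.096 for other numbers. The deviations of the 2 empty vector arrays mirror each other, so these ranges cannot decide whether the titles' replicate numbers pair the arrays. Between wild type and T286A alone, same-numbered arrays were at 0.041, 0.119 and 0.003 and other numbers at -0.11 to 0.096. In T286A minus empty vector, where 0 members were called, 3 were called among genes at or above the median level, 2 with array weights and 3 with an intensity trend; the cause was not tested. In wild type minus empty vector 0 were called under any of the 17.

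Signs that turned all belonged to uncalled differences near 0. For RGS3, T286A minus wild type was 0.103 with the mean of all probe sets, 0.003 with housekeeping centring, 0.003 with array weights, 0.053 without wild-type replicate 3 and 0.007 without T286A replicate 2 (-0.045 to 0.053 over the fits without 1 array). T286A minus empty vector was 0.039 with housekeeping centring. Wild type minus empty vector was 0.048 with median centring, 0.036 with housekeeping centring, 0.021 without wild-type replicate 1 and 0.001 without empty vector replicate 1 (-0.077 to 0.021 over such fits). T286A minus wild type turned to 0.029 for RGS10 without wild-type replicate 3 (lowest -0.077), to -0.026 for RGS19 with median centring and to 0.037 for CCND1 without T286A replicate 2 (lowest -0.158).

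Over all genes the calls numbered 180 in T286A minus wild type, 97 in T286A minus empty vector and 317 in wild type minus empty vector. Among the 9116 genes at or above the median level they numbered 381, 527 and 629, with an intensity trend 579, 618 and 726, and with the replicate block 86, 3 and 71. With 1 array left out they ranged over 70 to 128, 1 to 87 and 22 to 196. In T286A minus empty vector they numbered 28 with every probe set fitted, 190 with the mean of probe sets, 194 with housekeeping centring, 317 with array weights and 4 with the 2 groups alone; in wild type minus empty vector they numbered 208 with every probe set fitted and 68 with the 2 groups alone. Median centring gave 91 higher and 109 lower in T286A minus wild type, against 109 and 71, and 195 higher and 146 lower in wild type minus empty vector, against 110 and 207. Housekeeping centring gave 155 higher and 39 lower in T286A minus empty vector, against 62 and 35, and 168 higher and 149 lower in wild type minus empty vector.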
